A study of Mus musculus with 72 samples.

Results

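The BTG and TOB proteins form a small family of proteins that restrain cell proliferation, and 5 mouse genes of it were followed here: Btg1, Btg2, Btg3, Tob1 and Tob2. A gene was read from a probe set, a group of short probes on the array that together report 1 transcript, only where the array's annotation gave that probe set a single gene symbol. Of the 5 genes, 4 had such a probe set, 1 each, out of 21218 probe sets with a single symbol, which stand for 18820 genes, and 35556 in all. Both Btg3 probe sets (2) are also annotated to Gm7334, so no value is given for Btg3. The annotation that names the probe sets is that of the array platform.

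Hippocampal RNA was measured in adult male C57BL/6J mice, 2 months old and handled for 3 days beforehand, with 1 array per mouse, 9 mice per group and 72 arrays in all. Trained mice underwent contextual fear conditioning, in which a chamber is paired with a foot shock of 2 s and 1.5 mA that ended 2.5 min after the mouse entered, and both hippocampi were taken later. FC30 mice were dissected 30 min after training, and FC4, FC12 and FC24 mice after the number of hours in their names (4, 12 and 24). RT30 mice were trained in the same way, went back into the chamber for 5 min a day later to retrieve the memory, and were dissected 30 min after that. CC30, CC4 and CC12 mice were handled but never trained or shocked, and were dissected at the time of day of FC30, FC4 and FC12. CC30 is therefore also the time-of-day control of FC24 and RT30, and the 12 h groups were dissected in the dark phase and the others in the light phase. No untrained group was placed in the chamber without the shock. Exposure to the chamber and the shock of training therefore cannot be told apart, nor can retrieval and renewed exposure to the chamber. Whole hippocampus holds many cell types, and a lower value from fewer cells of a type cannot be told apart from less RNA per cell.

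BTG and TOB proteins share a conserved amino-terminal domain that binds the deadenylase subunits Cnot7 and Cnot8 of the CCR4-NOT complex, which shortens the poly(A) tails of mRNAs and so promotes their decay. The TOB proteins also bind the cytoplasmic poly(A)-binding protein, which brings the deadenylase to tailed mRNAs. Btg2, also called Tis21 or PC3, is an immediate early gene and a p53 target, and is well known in the brain as a marker of progenitors about to make neurons, while Btg1 is known for keeping neural progenitors of the adult hippocampus quiescent. Tob1 and Tob2 are known for holding cells back from S phase and for speeding up the shortening of poly(A) tails.

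The sequence before the start is shown in full for Btg2 and Tob2, which were both called higher after training. They differ in whether they hold a motif well known from genes that neurons switch on with activity. The cAMP response element (CRE) is the site bound by CREB, a transcription factor activated by calcium and cAMP in neurons, and its full palindrome is TGACGTCA with TGACG as its core. The 250 bases before the start were searched on both strands in RefSeq promoters of GRCm38.p6. The Btg2 and Tob2 stretches, at chr1:134079156-134079405 and chr15:81858327-81858576, are both on the minus strand and read 5′ to 3′ towards the gene. For Btg1 and Tob1 only 40 bases around each core are printed, from chr10:96616796-96616835, chr10:96616880-96616919 and chr11:94211340-94211379, all on the plus strand. Capitals mark the CRE or its core.
Btg2: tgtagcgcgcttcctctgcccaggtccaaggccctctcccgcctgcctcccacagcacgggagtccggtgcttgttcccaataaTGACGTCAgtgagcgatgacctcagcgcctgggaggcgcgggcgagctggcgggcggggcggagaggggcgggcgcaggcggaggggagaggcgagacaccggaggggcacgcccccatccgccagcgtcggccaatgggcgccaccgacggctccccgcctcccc
Tob2: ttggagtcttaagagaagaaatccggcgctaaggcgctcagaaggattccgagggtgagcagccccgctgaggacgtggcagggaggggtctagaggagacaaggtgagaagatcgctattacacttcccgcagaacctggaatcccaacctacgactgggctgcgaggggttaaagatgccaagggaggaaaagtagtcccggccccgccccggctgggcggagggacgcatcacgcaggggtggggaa
Btg1, farther core: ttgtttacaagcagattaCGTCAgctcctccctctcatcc
Btg1, nearer core: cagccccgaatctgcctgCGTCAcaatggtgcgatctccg
Tob1: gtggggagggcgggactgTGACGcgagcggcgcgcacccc

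The Btg2 stretch holds 1 full CRE, whose first base lies 166 bases before the start. Of 32851 promoters of that length, 1.546% hold a full CRE. Btg1 holds 2 cores, 187 and 103 bases before the start and both written as CGTCA, the core on the other strand. Tob1 holds 1 core, 96 bases before the start. That start lies inside the Tob1 gene, given as chr11:94209842-94215495, and the bases before the outer end of the gene were not searched. A core was found in 17.765% of all promoters, and the Tob2 stretch holds none. The E-box CACGTG (6.021% of all promoters), the AP-1 site TGANTCA (6.749%) and the serum response element (1.467%) were not found in any of these stretches. The stretches before the Btg3 starts, which are not printed, held none of these motifs and no CRE or core. A match is a description of the letters and not of a bound site.

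Btg2 was the member that changed most. It was higher 30 min after training and 30 min after retrieval, with every mouse of both groups above every CC30 mouse. In the mice dissected at 4 h, 12 h and 24 h it was back at the level of the controls. Levels are given as the log2 values the authors deposited (RMA values, which are background corrected and normalized between arrays), and can be compared between groups but not between genes. In the 9 CC30 mice the Btg2 level ran from 6.87 to 7.07 with a median of 7.03 (mean 7.00 ± 0.07, SD). In the 9 FC30 mice it ran from 7.22 to 7.64 with a median of 7.49 (mean 7.46 ± 0.14), and in the 9 RT30 mice from 7.27 to 7.59 with a median of 7.44 (mean 7.43 ± 0.10). The lowest FC30 and RT30 mice thus lay above the highest CC30 mouse, and neither group overlapped with CC30. The share of all probe sets without overlap is not given here, so the separation alone does not set Btg2 apart from other genes. The remaining 5 groups had medians from 6.95 to 7.06, and the highest CC4 mouse, at 7.22, equalled the lowest FC30 mouse. FC24 ran from 6.75 to 7.16 (median 6.96), CC4 from 6.88 to 7.22 (median 7.06) and FC4 from 6.83 to 7.08 (median 7.03). CC12 ran from 6.81 to 7.11 (median 6.95) and FC12 from 6.85 to 7.19 (median 7.01). Ordered by mean the groups were FC24, CC12, FC4, CC30, FC12, CC4, RT30 and FC30, and the step from CC4 to RT30, 0.377 on the log2 scale, was the one step larger than the SDs of both its groups.

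**Figure D1:**
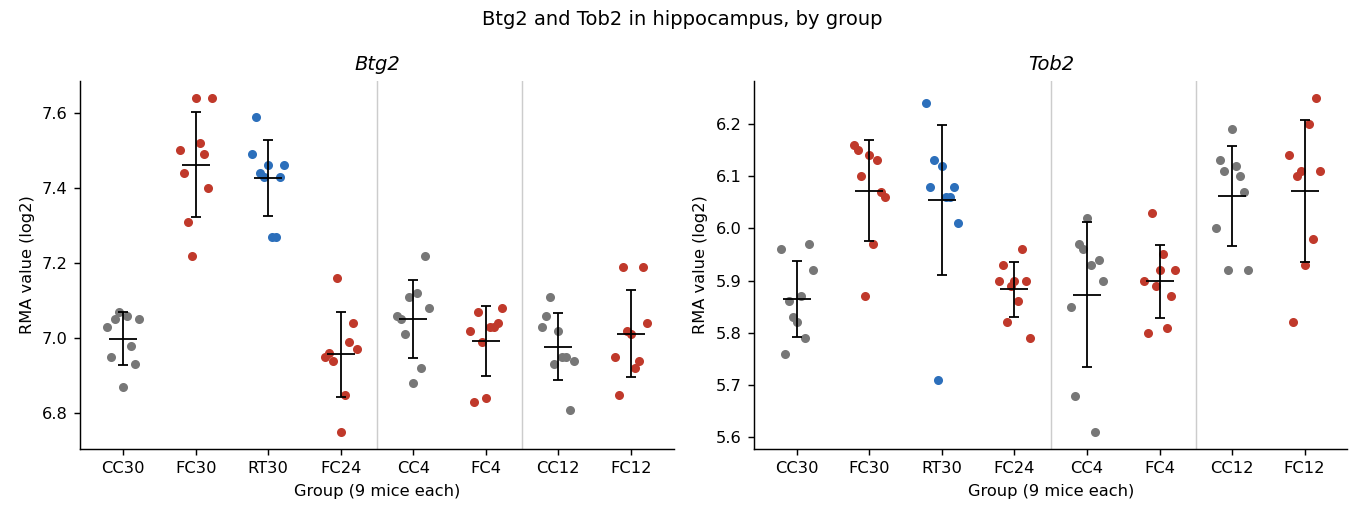
RMA value (log2) of Btg2 and Tob2 in each of the 72 mice, by group; points are mice (gray untrained, red trained, blue returned to the chamber), horizontal bars are group means and error bars the SD (n = 9), and vertical lines separate the times of day. All FC30 and RT30 mice lie above all CC30 mice for Btg2, and 1 RT30 mouse lies far below the others for Tob2.

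Differences between groups were estimated after the first principal component (PC1), the main axis of variation over all arrays, had been subtracted. The study's methods name such a step too, but the component found here may not be the same as theirs. This moved the value of a member by at most 0.0602 (Tob1) in any array. A member was called when its limma p, adjusted over all 35556 probe sets by Benjamini-Hochberg, was under 0.1. At FC30 against CC30, 2 of the 4 measured members were called, Btg2 and Tob2, both higher, where 0.256% of all probe sets were called. Btg2 was higher by 0.46 on the log2 scale (SE 0.0514, 95% confidence interval 0.355 to 0.570, 1.38-fold), with a limma adjusted p of 0.000125. Only 7 of the 35556 probe sets had a smaller p. At RT30 against CC30, Btg2 was the 1 member called, with 0.278% of all probe sets called, and was higher by 0.43 (SE 0.0418, interval 0.340 to 0.515, 1.35-fold, limma adjusted p = 1.63e-05). The FC30 and RT30 comparisons share the CC30 mice. Their direct comparison, RT30 against FC30, gave a difference of -0.03 (interval -0.153 to 0.0834, limma adjusted p = 1), an interval that holds differences of either sign.

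The FC24 mice, trained in the same way but not returned to the chamber, give a second reference at the same time of day. Against FC24, Btg2 was higher by 0.50 in FC30 (SE 0.0584, interval 0.382 to 0.626, limma adjusted p = 0.000268) and by 0.47 in RT30 (SE 0.0501, interval 0.364 to 0.574, limma adjusted p = 6.79e-05). All 9 mice of FC30 and of RT30 lay above all 9 FC24 mice, and the share of all probe sets that separate in this way is again not given. These were 2 of 4 members called in FC30 against FC24 and 1 of 4 in RT30 against FC24, with 0.152% of all probe sets called in each. Both comparisons share the FC24 mice.

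No member was called in FC24 against CC30, FC4 against CC4 or FC12 against CC12, nor in RT30 against FC30, and 0% of all probe sets were called by limma in any of these. At an unadjusted p under 0.05, 1534 probe sets passed in FC24, 1902 in FC4, 1442 in FC12 and 1386 in RT30 against FC30, and 0 of the 4 members did. The equal variance t statistic of the study's methods also called 0 probe sets after Benjamini-Hochberg adjustment, and with local false discovery rates it called 23, 15, 31 and 25, again with 0 members among them. The Btg2 difference was -0.04 in FC24 (interval -0.135 to 0.0513), -0.06 in FC4 (-0.156 to 0.0397) and 0.03 in FC12 (-0.0667 to 0.135). Each of these upper bounds lies below the lower bounds of the FC30 and RT30 differences.

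Whether the Btg2 response differed between times was tested as an interaction in limma, each trained group against the controls of its own time of day. The FC30 difference exceeded the FC4 difference by 0.52 (SE 0.0698, interval 0.379 to 0.662, limma adjusted p = 0.000117) and the FC12 difference by 0.43 (SE 0.0711, interval 0.284 to 0.572, limma adjusted p = 0.00379). Btg2 was the 1 member called in each, where 0.045% and 0.0872% of all probe sets were called. The FC4 and FC12 differences were not called as different for any member, with 0% of probe sets called in limma, 0 by the 2 forms of the methods' test with local false discovery rates, and 1577 at an unadjusted p under 0.05.

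**Figure D2:**
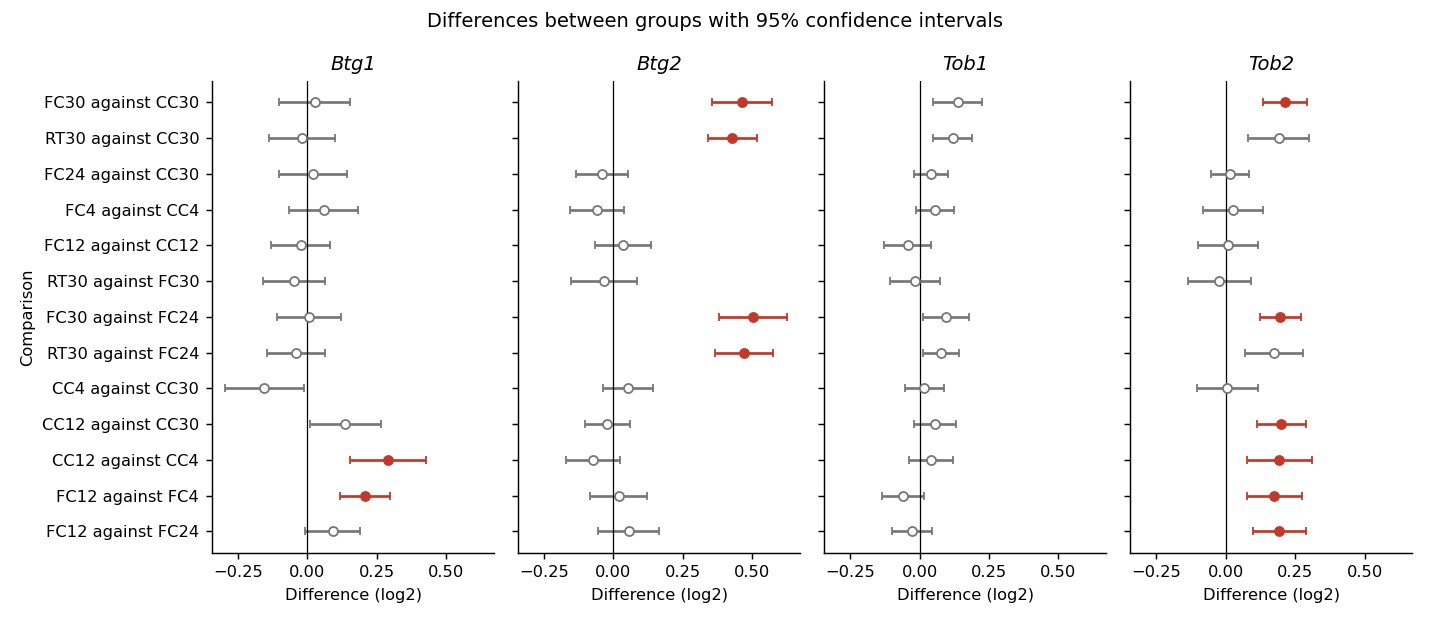
Difference between groups (log2, after subtraction of PC1) for the 4 measured members in 13 comparisons; points are limma estimates from 9 against 9 mice and bars their 95% confidence intervals. Filled red points were called at an adjusted p under 0.1: Btg2 stands out at FC30 and RT30 with estimates from 0.43 to 0.50, Tob2 was called after training and in the 12 h groups, and Btg1 was called in the 12 h against the 4 h groups.

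Tob2, whose product bridges poly(A)-binding protein and the deadenylase, moved in 2 ways: it was higher 30 min after training, and it was higher in the dark phase in trained and untrained mice alike. Its level in CC30 ran from 5.76 to 5.97 with a median of 5.86 (mean 5.86 ± 0.07, SD, n = 9), in FC30 from 5.87 to 6.16 with a median of 6.10 (mean 6.07 ± 0.10) and in RT30 from 5.71 to 6.24 with a median of 6.08 (mean 6.05 ± 0.14). All 9 FC30 mice lay above the CC30 mean and 7 of them above every CC30 mouse. In RT30, 8 of 9 mice lay above every CC30 mouse, while replicate 4, at 5.71, lay below every one of them. In the 12 h groups, CC12 ran from 5.92 to 6.19 (median 6.10) and FC12 from 5.82 to 6.25 (median 6.11), against 5.61 to 6.02 (median 5.93) in CC4, 5.80 to 6.03 (median 5.90) in FC4 and 5.79 to 5.96 (median 5.90) in FC24. By mean the groups fell into a lower set, CC30, CC4, FC24 and FC4, and a higher set, RT30, CC12, FC12 and FC30. The step between the sets, 0.156, was the one step larger than the SDs of both neighbours, and groups within a set differed by less than their spread.

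At FC30 the Tob2 difference from CC30 was 0.21 (SE 0.0381, interval 0.133 to 0.293, 1.16-fold, limma adjusted p = 0.0203), and from FC24 it was 0.20 (interval 0.124 to 0.270, limma adjusted p = 0.031). With the replicate number as a block neither was called (limma adjusted p = 0.138 and 0.143). At RT30 the difference from CC30 was 0.19 (interval 0.0811 to 0.300) with a limma adjusted p of 0.272, and was not called. The call turned with 1 library and with the fit: without RT30 replicate 4 the difference was 0.23 with a limma adjusted p of 0.00856, and with all 8 groups in one fit it was 0.19 with a limma adjusted p of 0.0601. The difference between RT30 and FC24 was 0.17 (limma adjusted p = 0.397), and that between RT30 and FC30 was -0.02 (interval -0.136 to 0.0912). The training effect on Tob2 exceeded that at 4 h by 0.18 (interval 0.0551 to 0.314, limma adjusted p = 0.57) and that at 12 h by 0.20 (interval 0.0726 to 0.335, limma adjusted p = 0.602), so a difference between times was not called.

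In untrained mice, 1 member was called in CC12 against CC30, where 3.5% of all probe sets were called, and 2 in CC12 against CC4, where 5.01% were. Tob2 was higher in CC12 than in CC30 by 0.20 (SE 0.0415, interval 0.114 to 0.288, limma adjusted p = 0.0144), with 9 of 9 CC12 mice above the CC30 mean, and higher than in CC4 by 0.19 (SE 0.0559, interval 0.0767 to 0.311, limma adjusted p = 0.0679). The second call was close to the threshold: it was lost on leaving out any 1 of 8 arrays (CC4 replicates 1, 2 and 7 and CC12 replicates 2, 3, 5, 6 and 7), where the adjusted p reached 0.124. Both comparisons share the CC12 mice. In CC4 against CC30, both in the light phase, no member was called, 0.0731% of all probe sets were, and the Tob2 difference was 0.01 (interval -0.101 to 0.115).

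The trained mice gave the same comparison in other animals, although time since training differed there as well, and these 2 comparisons were added after the others had been seen. Tob2 was higher in FC12 than in FC4 by 0.17 (SE 0.0473, interval 0.0757 to 0.274, limma adjusted p = 0.061) and than in FC24 by 0.19 (SE 0.0449, interval 0.0996 to 0.288, limma adjusted p = 0.0296). In each, 8 of 9 FC12 mice lay above the mean of the other group. Of the 4 members 2 were called in FC12 against FC4, with 4.22% of all probe sets called, and 1 in FC12 against FC24, with 3.19%. The 2 comparisons share the FC12 mice, and the Tob2 values of FC12 and CC12 differed by 0.01 (interval -0.100 to 0.118).

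Btg1, the member tied to progenitor quiescence, was called between times of day and in no comparison of training or retrieval. Its level in CC4 ran from 8.74 to 9.15 with a median of 8.98 (mean 8.98 ± 0.16, SD, n = 9) and in CC12 from 9.12 to 9.50 with a median of 9.26 (mean 9.27 ± 0.13). In FC4 it ran from 8.90 to 9.15 (median 9.07) and in FC12 from 9.13 to 9.39 (median 9.22). The 4 h groups were the lowest and the 12 h groups the highest, with little overlap. CC30 (8.88 to 9.39, median 9.14), FC30 (8.97 to 9.34, median 9.10), FC24 (8.93 to 9.27, median 9.20) and RT30 (8.97 to 9.24, median 9.10) lay between them. In the order CC4, FC4, RT30, CC30, FC24, FC30, FC12 and CC12, no step between neighbours exceeded their SDs.

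Btg1 was higher in CC12 than in CC4 by 0.29 (SE 0.0651, interval 0.155 to 0.428, 1.22-fold, limma adjusted p = 0.016), and 7 of 9 CC12 mice lay above every CC4 mouse. In trained mice it was higher in FC12 than in FC4 by 0.21 (SE 0.0430, interval 0.118 to 0.299, 1.16-fold, limma adjusted p = 0.0133), and again 7 of 9 FC12 mice lay above every FC4 mouse. These groups hold different mice. The differences of CC12 from CC30, 0.14 (interval 0.00895 to 0.264, limma adjusted p = 0.328), of CC4 from CC30, -0.15 (interval -0.297 to -0.0125, limma adjusted p = 0.756), and of FC12 from FC24, 0.09 (interval -0.00740 to 0.191, limma adjusted p = 0.444), were not called. Btg1 differed from CC30 by 0.03 in FC30 (interval -0.100 to 0.154, limma adjusted p = 0.962) and by -0.02 in RT30 (interval -0.139 to 0.0979, limma adjusted p = 0.989). RT30 differed from FC24, trained but not returned to the chamber, by -0.04 (interval -0.145 to 0.0633, limma adjusted p = 0.967). None of these was called.

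**Figure D3:**
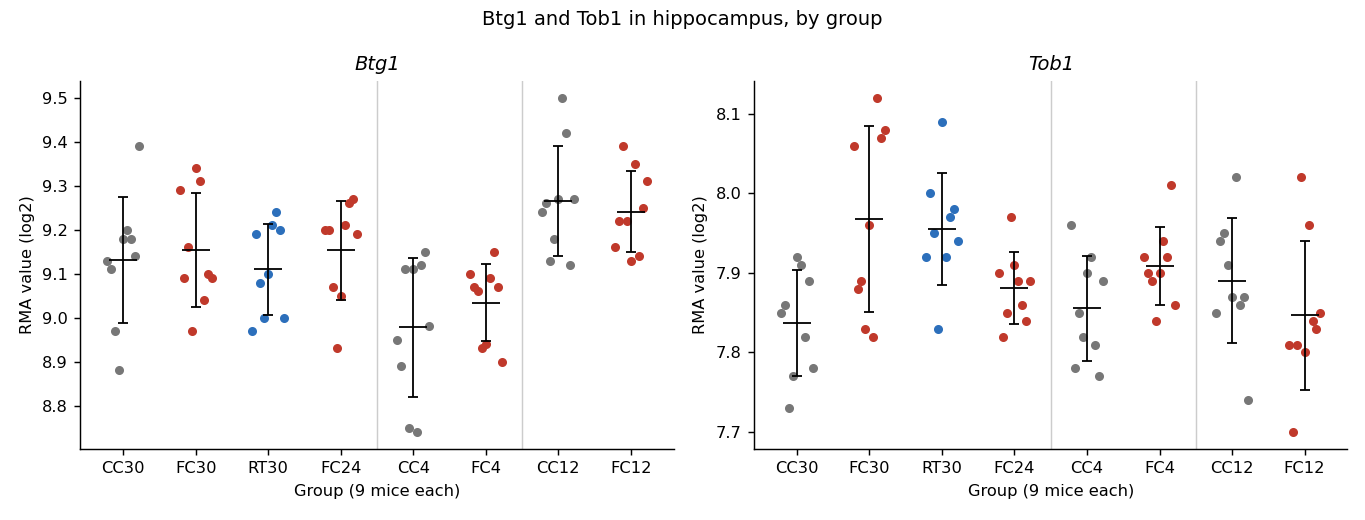
RMA value (log2) of Btg1 and Tob1 in each of the 72 mice, by group; points are mice (gray untrained, red trained, blue returned to the chamber), horizontal bars are group means and error bars the SD (n = 9), and vertical lines separate the times of day. Btg1 is lowest in the 4 h groups and highest in the 12 h groups, and for Tob1 the FC30 and RT30 means, 7.97 and 7.96, are the highest of the 8 groups with overlap of the mice.

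Tob1, the closest relative of Tob2, was not called in any of the 16 comparisons. Its level ran from 7.73 to 7.92 in CC30 (median 7.85, mean 7.84 ± 0.07, SD, n = 9), from 7.82 to 8.12 in FC30 (median 7.96, mean 7.97 ± 0.12) and from 7.83 to 8.09 in RT30 (median 7.95, mean 7.96 ± 0.07). FC30 and RT30 had the highest means, but their mice overlapped with those of every other group. In CC4, FC4, CC12, FC12 and FC24 the medians lay between 7.83 and 7.90. The difference was 0.14 at FC30 (SE 0.0418, interval 0.0495 to 0.225, limma adjusted p = 0.417) and 0.12 at RT30 (SE 0.0335, interval 0.0495 to 0.190, limma adjusted p = 0.289). With all 8 groups in one fit the FC30 difference was called (limma adjusted p = 0.0881) and the RT30 difference was not (limma adjusted p = 0.18). With local false discovery rates the RT30 difference was called (rate 0.0683), and with those of z-scores it was not (0.441).

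Among mice of the same group, the members varied together in part. Each value was taken as its deviation from the mean of its group, over all 72 arrays, and the 6 pairs of members were tested by permuting mice within groups (100000 permutations, adjusted over the 6 pairs). Tob1 and Tob2 had r = 0.36 (permutation p = 0.00399, adjusted 0.0239) and rho = 0.27 (permutation p = 0.034, adjusted 0.102), and r was 0.33 without the 2 arrays farthest out for Tob1. Btg2 and Tob2 had r = 0.30 (permutation p = 0.0159, adjusted 0.0478) and rho = 0.32 (permutation p = 0.00986, adjusted 0.0592), and r was 0.27 without the 2 arrays farthest out for Btg2. Without RT30 replicate 4, Tob1 with Tob2 had r = 0.30 (unadjusted permutation p = 0.0217) and rho = 0.22 (unadjusted permutation p = 0.0929), and Btg2 with Tob2 had r = 0.33 (unadjusted permutation p = 0.00696) and rho = 0.32 (unadjusted permutation p = 0.0105). The other 4 pairs had r from 0.00 to 0.14, with adjusted permutation p from 0.559 to 0.993. Values on the same array share its RNA sample and its normalization.

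**Figure D4:**
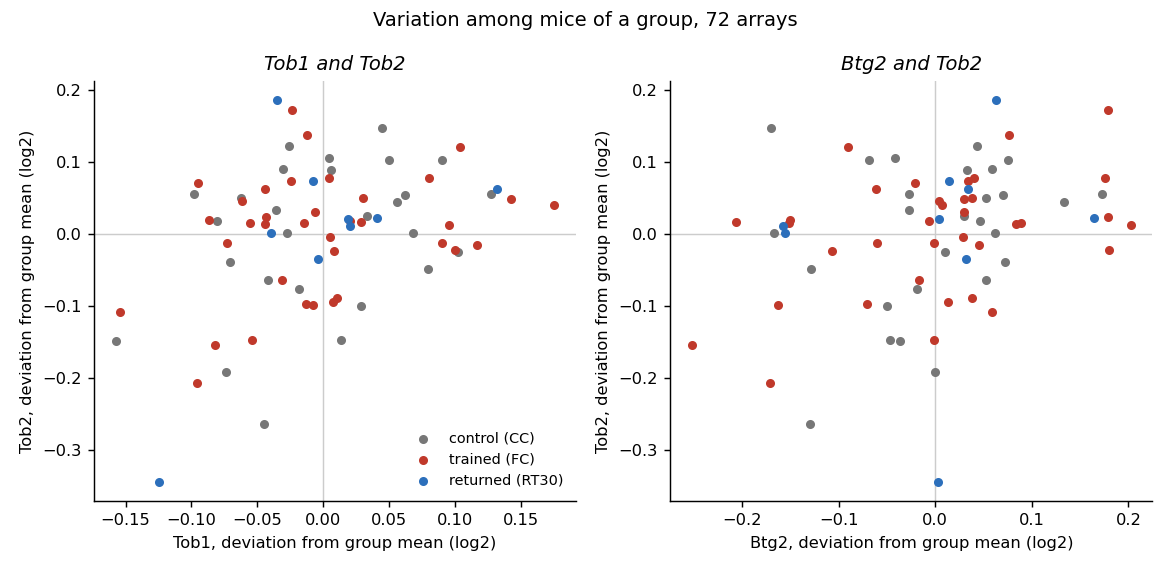
Deviation of Tob2 from its group mean (log2, after subtraction of PC1) against that of Tob1 (left) and of Btg2 (right) for the 72 mice; each point is a mouse (gray untrained, red trained, blue returned to the chamber) and gray lines mark a deviation of 0. The points spread upwards to the right with wide scatter (r = 0.36 and 0.30), and the lowest point in both panels is RT30 replicate 4.

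The genes most alike to each member were taken as those with the highest Pearson r over the 72 arrays among the 21218 probe sets with a single symbol. For Btg2 they were Dusp1 (r = 0.87), a phosphatase that switches off MAP kinases, the orphan nuclear receptor Nr4a1 (0.85), and the transcription factors Fos (0.85), Egr2 (0.85) and Npas4 (0.82). All are immediate early genes. Within groups, with the group means removed, r with Btg2 was 0.46 for Dusp1, 0.46 for Nr4a1, 0.43 for Fos, 0.33 for Egr2 and 0.48 for Npas4. Of these 5 genes, 1 (Dusp1) had a full CRE within 250 bases before a start and 5 had at least the core. A serum response element was found for 1 of the 5, Egr2. Counted by gene, 1.769% of 27025 genes have a full CRE before at least 1 start, 19.785% the core and 1.624% the serum response element. For Egr2, 5 starts were searched. For Tob1 the most alike were Npas4 (0.54), Dusp1 (0.51) and Egr2 (0.50), with much lower values of r. With the group means removed, r with Tob1 was only 0.30 for Npas4, 0.22 for Dusp1 and 0.13 for Egr2. These 3 are among the 5 of Btg2, so their promoters are the same. For Tob2 they were Tm6sf2 (0.74), Errfi1 (0.74), a feedback inhibitor of the EGF receptor, and the small nucleolar RNA Snord14e (0.72), of which Errfi1 has promoters in the table and a full CRE. For Btg1 they were Nfya (0.75), a subunit of a CCAAT-binding factor, the ERK phosphatase Dusp6 (0.71) and the signaling protein Wnt7a (0.71), and 0 of these 3 have a core. No gene is alike to all 4 members in these lists, and Dusp1, Npas4 and Egr2 are shared by those of Btg2 and Tob1.

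The partners and pathways of the family were read from lists of genes. The CCR4-NOT complex, the deadenylase that BTG and TOB proteins bind, had 10 of its 11 genes on the list measured, and 0 of 10 were called at FC30 or RT30 against CC30 or in CC12 against CC30 or CC4. In FC12, 0 of 10 were called against FC4 and 1 against FC24: Cnot4, a subunit with ubiquitin ligase activity, was higher by 0.11 (limma adjusted p = 0.0194), where 3.19% of all probe sets were called. The median difference of the 10 genes at FC30 was -0.00577, with single genes from -0.05 to 0.03, against a median of -0.00172 over all probe sets. The direct partner subunits Cnot7 and Cnot8 differed by 0.02 (SE 0.0301) and -0.05 (SE 0.0484) at FC30. Of 16 other genes of deadenylation and poly(A) binding, 0 were called at FC30 (median 0.00455) or RT30 (median -0.00881), and 2 were lower in CC12 than in CC4, where 5.01% of all probe sets were called: Pan2, the catalytic subunit of another deadenylase, with a difference of -0.17 (limma adjusted p = 0.0621), and the poly(A)-binding protein Pabpc4 with -0.09 (limma adjusted p = 0.053). In FC12 against FC24 1 of the 16 was called, Cpeb1, which binds elements in mRNAs that control the tail, higher by 0.12 (limma adjusted p = 0.00832). Btg4, a further family member known from oocytes, differed by -0.07 (limma adjusted p = 0.9) at FC30 and 0.03 (limma adjusted p = 0.983) at RT30.

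Genes of the G1 to S transition, the step of the cell cycle that the family restrains, gave 0 of 13 called at FC30 (median 0.00774) and 0 of 13 at RT30 (median 0.00511). In the dark phase, 2 of 13 were higher in CC12 than in CC30 (median 0.03, against 3.5% of all probe sets called in either direction): the cyclins Ccnd2, by 0.21 (limma adjusted p = 0.0215), and Ccne1, by 0.12 (limma adjusted p = 0.0212). In CC12 against CC4, 3 of 13 were higher (median 0.04, against 5.01% of all probe sets called): Ccnd2 by 0.26 (limma adjusted p = 0.00471), Ccnd1 by 0.15 (limma adjusted p = 0.0215) and Ccnd3 by 0.20 (limma adjusted p = 0.0553). Ccnd2 was also higher in FC12 than in FC4, by 0.28 (limma adjusted p = 0.00204), and than in FC24, by 0.24 (limma adjusted p = 0.00246). In these comparisons 3 and 4 of 13 were higher and 0 lower, with 4.22% and 3.19% of all probe sets called. Not all were cyclins: in FC12 against FC24 they included Rbl2, higher by 0.11 (limma adjusted p = 0.0689). Of 11 p53 targets other than Btg2, 0 were called at FC30 (median 0.02) or RT30 (median 0.02), and in CC12 against CC30 2 were higher (median 0.04): Trp53inp1, by 0.17 (limma adjusted p = 0.0283), and Sesn1, by 0.12 (limma adjusted p = 0.0684). In CC12 against CC4 1 of 11 was higher (Sesn1), in FC12 against FC4 2 and in FC12 against FC24 4, and 0 were lower in these. The shares of all probe sets called, in either direction, were 3.5%, 5.01%, 4.22% and 3.19% in that order. The G1 to S and p53 lists share at least 1 gene, as their largest RT30 difference from CC30 was the same, 0.179207.

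Of 11 genes of neurogenesis, 0 were called at FC30 (median -0.04) or RT30 (median -0.06). The list did not move as one in the dark phase. In CC12 against CC30, with 3.5% of all probe sets called, 1 of 11 was called and 5 of 11 lay above 0 (median -0.04). In CC12 against CC4, with 5.01% of all probe sets called, 1 was called and 6 lay above 0 (median 0.07). The gene called in both was Sox11, a transcription factor of newborn neurons, higher in CC12 than in CC4 by 0.36 (limma adjusted p = 0.000117) and than in CC30 by 0.16 (limma adjusted p = 0.0766), and lower in CC4 than in CC30, with a difference of -0.20 (limma adjusted p = 0.0256). In FC12 against FC4 2 of 11 were higher, with 4.22% of all probe sets called. In FC12 against FC24, with 3.19% of all probe sets called, 2 were higher and 1 lower. The lower one was Dcx, a microtubule protein of migrating young neurons, with a difference of -0.18 (limma adjusted p = 0.0252), while Sox11, by 0.17 (limma adjusted p = 0.0641), and Neurod1, by 0.20 (limma adjusted p = 0.0107), were higher.

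Markers of cell types were read in the same arrays. All 10 hippocampal neuron markers had a mean above the median of the array in every group. The 8 choroid plexus markers were all higher on average in FC30 than in CC30, with a median difference of 0.34 and 0 called, and their summed level ran from 42.11 to 55.22 in FC30 and from 42.11 to 51.28 in CC30. They were also all higher in CC12 than in CC30 (median 0.48, 0 called, summed level from 42.09 to 58.51). The same held for all 8 in FC24 (median 0.23, 0 called) and in CC4 (median 0.36, 0 called) against CC30. In RT30 against CC30 their median difference was 0.000880 (4 of 8 above 0, summed level from 41.26 to 48.18). With the summed choroid plexus level as a covariate, the FC30 difference was 0.50 for Btg2 (limma adjusted p = 0.000537) and 0.24 for Tob2 (limma adjusted p = 0.0266), and the CC12 difference of Tob2 from CC30 was 0.23 (limma adjusted p = 0.0136). The 8 endothelial markers were all lower at FC30 (median -0.07, 0 called, summed level 57.78 to 60.16 against 58.99 to 60.45 in CC30). All 8 were also lower in FC24 than in CC30 (median -0.03, 0 called). At RT30 6 of 8 were lower and 1 called, Cldn5, with a difference of -0.20 (limma adjusted p = 0.0673), where 0.278% of all probe sets were called. In CC12 against CC30, 3.5% of all probe sets were called. There 1 endothelial marker was called higher and 1 lower, and 1 of 8 astrocyte markers higher. Called lower were 1 of 8 microglial, 1 of 6 oligodendrocyte and 1 of 10 neuronal markers. Only 1 of 8 endothelial markers lay above 0 there (median -0.11), and 0 of 8 microglial markers did (median -0.06). In CC12 against CC4, 4 of 8 endothelial (median -0.01) and 1 of 8 microglial markers (median -0.04) lay above 0. In FC12 against FC4 these were 3 of 8 (median -0.06) and 2 of 8 (median -0.05). There 1 endothelial marker was called higher and 2 lower, with 4.22% of all probe sets called. Apart from the choroid plexus covariate, the part of these cell types in the results was not tested. On the first or second principal component, 6 arrays stood apart from their groups: 1 each of CC30 (replicate 3), FC30 (4), CC4 (8), CC12 (2), FC12 (2) and FC24 (4). Without these 6 arrays every call of a member between groups held except that of Tob2 in CC12 against CC4 (limma adjusted p = 0.11).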

How the data were processed

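The deposited values are log2 RMA signals of 72 arrays: the authors averaged 2 scans of each array, then corrected background, normalized by quantiles and summarised probes with RMA in Affymetrix Power Tools. Array medians lay between 5.82 and 5.88. Groups came from the sample labels, and each array is a separate mouse. Here PC1, which held 17.4% of the variance of the centred values, was subtracted, and each comparison was fitted to its own 18 arrays (36 for interactions) with limma 3.58.1 in R 4.3.3, two-sided, with Benjamini-Hochberg adjustment over 35556 probe sets. Precision is limited by the number of arrays. The share held by PC1 is lower than the study's methods give for theirs, and how their values were scaled beforehand is only partly stated, so the component may differ. The limma fit, the equal variance t-test and the local false discovery rates were run on a simulated comparison of FC30 with CC30. Only the limma result had to meet a set criterion there. The simulated noise was independent between probe sets, so the simulation cannot show how the local rates behave on these arrays. At FC30 against CC30 the local rates called 113 probe sets, and those of z-scores called 15.

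The members and lists were chosen with earlier results of these data known. Named genes were the members, the genes most alike to them (5 for Btg2, 3 otherwise) and at most 4 called genes per list. Of 124 list symbols, 11 were not matched. Besides the main setting, 12 planned and 3 added settings were run for all comparisons, and each array was left out in turn in 4 of them. The package used by the authors for local false discovery rates was replaced by code after Efron's method. Promoters came from a RefSeq table, read with Python 3.11.15 and pandas 2.3.3, and figures were drawn with matplotlib 3.10.9.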

Additional observations from a re-analysis of the deposited data

Results flagged for a closer look

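In 1 of the 32 groups of 9 values (4 members, 8 groups), 1 mouse stood apart by Dixon's test: Tob2 in RT30 replicate 4, at 5.71, with the nearest RT30 mouse at 6.01. Chance alone gives such a mouse in about 1 of 20 groups. The same mouse was not apart for the other members by this test, but it was also the lowest RT30 mouse for Tob1, at 7.83. Its Btg2 value was 7.43, near the RT30 median of 7.44. Without this mouse Tob2 was called at RT30 against CC30, as given above.

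The Btg2 difference between trained and untrained mice was larger at 30 min than at 4 h, by 0.52 on the log2 scale, and than at 12 h, by 0.43, both by a limma interaction.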

How the results depend on the processing

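Over 15 other settings and 18 single arrays left out, Btg2 was called at FC30 and at RT30 against CC30 in every one, with differences of 0.44 to 0.50 and 0.41 to 0.45. Tob2 at FC30 was called in 13 of 15 settings, Tob2 in CC12 against CC30 in 14 and against CC4 in 10, and Btg1 in CC12 against CC4 in 13. The choroid plexus covariate, the z-scores, the arrays that stand apart, the single arrays and the comparisons of FC12 with FC4 and FC24 were added after seeing the data. The count of probe sets called ranged over the 15 settings from 15 to 327 at FC30 (main 91), 37 to 243 at RT30 (main 99), 105 to 1543 in CC12 against CC30 (main 1243) and 490 to 2862 against CC4 (main 1782). It reached 165 for RT30 against FC30 with PC1 taken from residuals within groups, with 0 members among them. The number of arrays limits what could be called.

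Whether the replicate number marks a shared experiment is not given by the labels. Over the 13 comparisons 0 to 3 of 9 same-numbered pairs had a correlation over 0.1 (highest 0.376, in FC4 against CC4) and 0 to 4 of 9 correlated best with their own number, which falls short of pairing in every number but does not show that the numbers are unrelated. With the replicate block, the members called were 1 at FC30 against CC30 (main 2), 1 in CC12 against CC4 (main 2), 1 in FC30 against FC24 (main 2) and 0 in FC12 against FC24 (main 1), each through the loss of Tob2, and the replicate block changed no other call of a member. With local false discovery rates, the members called were 2 at RT30 against CC30 (main 1, with Tob1 added), 0 in CC12 against CC4, 0 in FC12 against FC4 (main 2) and 0 in FC12 against FC24. With those of z-scores, they were 1 at FC30 against CC30, 0 in CC12 against CC30 (main 1), 0 in CC12 against CC4, 0 in FC30 against FC24, where Btg2 was lost too, 0 in FC12 against FC4 and 0 in FC12 against FC24. With all 8 groups in one fit, 2 were called at RT30 against CC30 (Btg2 and Tob2). In CC12 against CC4, 1 was called with PC1 as a covariate and 1 without the arrays that stand apart. With each array left out in turn, 1 to 2 were called at RT30 against CC30 (2 only without RT30 replicate 4) and 1 to 2 in CC12 against CC4. With the first 2 components removed, 1 pair of members in place of 2 was correlated among mice of a group. The cause of these changes was not tested.

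Differences near 0 changed sign. Btg1 became -0.00319 in FC24 against CC30 and 0.00863 in RT30 against FC24 with PC1 as a covariate. In FC30 against FC24 Btg1 became -0.00126 with the first 2 components removed, -0.00169 with array weights and -0.00193 without the arrays that stand apart. Leaving out single arrays, Btg1 ran from -0.00476 to 0.0589 at FC30 and from -0.0523 to 0.0113 at RT30 against CC30. Tob2 became -0.00648 in FC12 against CC12 with array weights, -0.00586 in CC4 against CC30 with the first 2 components removed, and -0.0127 between the FC4 and FC12 effects without the arrays that stand apart. The within-group r of Btg1 with Btg2 became -0.0976 with the first 2 components removed.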
